A study of Mus musculus with 7 samples.

Results

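The genes described here are the 10 mouse genes that encode the transforming growth factor-β (TGF-β) ligands (Tgfb1, Tgfb2 and Tgfb3), their cell-surface receptors (Tgfbr1, Tgfbr2 and Tgfbr3) and the latent TGF-β binding proteins (Ltbp1, Ltbp2, Ltbp3 and Ltbp4). They were picked by name for their role in the pathway, and each was matched to its row of the count table through its Ensembl identifier. All 10 were found among the 55450 genes listed, and all 10 were among the 17959 genes with enough reads to be tested. The lowest raw count of any of them in any mouse was 95.

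The data are bulk RNA sequencing counts from dorsal skin of 7 wild type male C57BL/6 mice aged 24 months. A group of 3 mice received ABT-263 (Navitoclax, an inhibitor of the anti-apoptotic Bcl-2 proteins used as a senolytic, a drug meant to remove senescent cells) at 5 µM on the skin for 5 days, and a group of 4 mice received the DMSO vehicle alone. Mice of both groups had their back hair removed by clipping and depilatory cream, were cleansed with ethanol and wore a semi-occlusive film, so the control is treated skin and not undisturbed skin. The mice are named by the numbers on their labels: 480, 481, 482 and 483 for DMSO and 476, 477 and 478 for ABT-263.

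TGF-β ligands are secreted in a latent form, folded inside their own propeptide, and the propeptide is tethered to the extracellular matrix through a latent binding protein. Integrins, thrombospondin and proteases can free the ligand, which then binds the type II receptor Tgfbr2. That receptor recruits and phosphorylates the type I receptor Tgfbr1, which passes the signal to Smad2 and Smad3, while Tgfbr3 (betaglycan) presents ligand to the signaling pair. In skin the pathway is known for restraining keratinocyte growth and for driving collagen production by fibroblasts.

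Each mouse gave 1 library. The libraries held 20344364 to 26824123 counts in the DMSO group and 27325963 to 43562330 in the ABT-263 group, with no overlap in depth between the groups. Levels are given as CPM, counts scaled to a common library size after normalization by the trimmed mean of M values, and fold changes compare ABT-263 with DMSO. A gene is called changed where the adjusted p-value of edgeR's quasi-likelihood test, corrected over all genes tested, was below 0.05. As a check of the tissue label, the summed CPM of 6 basal keratinocyte markers ran from 13726 to 35760 over the 7 mice and that of 8 skeletal muscle markers from 27647 to 70787, so the homogenate held epidermis together with much muscle RNA. The tissue was homogenized whole, so more cells of a type and more RNA per cell cannot be told apart in any value below.

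Of the 10 genes, 1 rose (Tgfbr2), none fell and 9 did not pass the threshold. Among all genes tested 24.2% were called, 12.4% as higher and 11.7% as lower, so the number called among these 10 was not above the background. At an unadjusted p below 0.05 there were 2 (Tgfbr2 and Ltbp2), beside 40.1% of all genes, and DESeq2's Wald test also called Tgfbr2 alone of the 10 while calling 33.1% of all genes it could test. The ABT-263 and DMSO mice did not overlap for 1 of the 10 genes, again Tgfbr2, beside 37.1% of all genes. The log2 fold change was positive for 7 genes and negative for 3, with a median of 0.19 beside 0.0022 for all genes tested. The ABT-263 mouse 476 was the highest of the 7 mice for 3 of these genes and the lowest for 4, so values without this mouse are given where they changed a call or a direction.

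**Figure D1:**
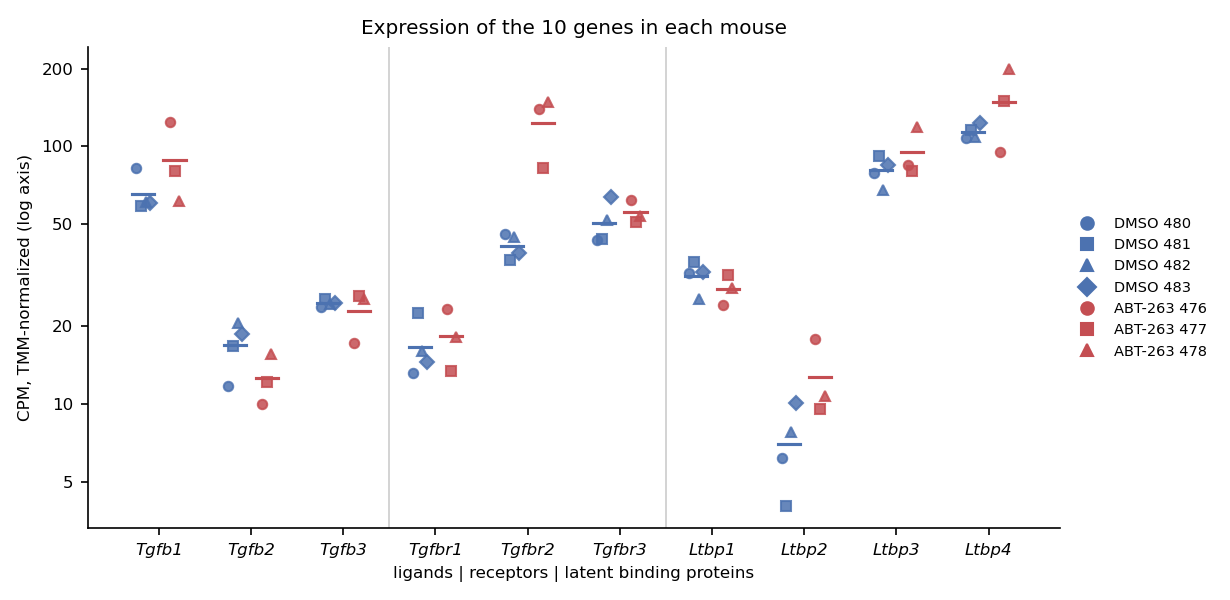
CPM of the 10 genes in each mouse on a log axis, with 1 symbol per mouse (blue DMSO, red ABT-263) and a line at each group mean. The 3 ABT-263 mice lie above all 4 DMSO mice for Tgfbr2 (82.3 to 148 against 36.2 to 45.6), while the groups overlap for the other genes.

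The 3 ligand genes kept overlapping levels between the groups. Tgfb1 (ENSMUSG00000002603, chr7:25687002-25705077, plus strand, 7 exons), the main isoform in immune and connective tissue cells, stood at 82.0, 58.6, 60.6 and 60.1 CPM in DMSO mice 480 to 483 and at 124.5, 79.9 and 61.4 CPM in ABT-263 mice 476 to 478. Mouse 476 was highest, DMSO mouse 480 came second, and ABT-263 mouse 478 was level with the remaining DMSO mice. The means were 65.3 ± 11.2 CPM (SD, n = 4) for DMSO and 88.6 ± 32.4 CPM (SD, n = 3) for ABT-263. The log2 fold change of 0.44 ± 0.24 (SE) did not pass the test (adjusted p = 0.213, edgeR), and it was 0.12 (adjusted p = 0.715, edgeR) without mouse 476.

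Tgfb2 (ENSMUSG00000039239, chr1:186622792-186705989, minus strand, 7 exons) is a ligand known for its need of betaglycan for efficient receptor binding. Its levels were 11.7, 16.8, 20.7 and 18.7 CPM in the DMSO mice and 10.01, 12.2 and 15.7 CPM in the ABT-263 mice. The 2 lowest ABT-263 mice bracketed DMSO mouse 480, and the other DMSO mice lay above all ABT-263 mice. Its log2 fold change was -0.42 ± 0.24 (SE), with an adjusted p of 0.214 in edgeR's test, and stayed between -0.60 and -0.28 with each mouse left out. Tgfb3 (ENSMUSG00000021253, chr12:86056745-86079041, minus strand, 7 exons), the third isoform, was the steadiest of the 10 genes among DMSO mice, with 23.8, 25.4, 24.4 and 24.7 CPM (mean 24.6, SD 0.70). In the ABT-263 mice it stood at 17.3, 26.2 and 25.6 CPM. Mouse 476 was therefore the lowest of all, and the other ABT-263 mice were the highest. Its log2 fold change of -0.092 ± 0.16 (SE; adjusted p = 0.708, edgeR) turned to 0.083 without mouse 476.

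Tgfbr2, the type II receptor that binds ligand and starts the signal, rose about 3-fold and was the receptor gene that separated the groups. The gene (ENSMUSG00000032440) lies at chr9:116084293-116175360 on the minus strand in the GRCm38 build, has 8 exons, and no annotated gene overlaps its exons on either strand. It stood at 45.6, 36.2, 44.3 and 38.5 CPM in DMSO mice 480 to 483 and at 139.7, 82.3 and 148 CPM in ABT-263 mice 476 to 478. The lowest ABT-263 mouse, 477, was well above the highest DMSO mouse, and the DMSO mice lay close together. The means were 41.2 ± 4.51 CPM (SD, n = 4) and 124 ± 35.9 CPM (SD, n = 3), a fold of 3.00. The log2 fold change was 1.58 ± 0.21 (SE) with an adjusted p of 0.00628 in edgeR's test, which placed the gene at rank 151 of 17959 by p-value. Only 5.45% of all genes tested had a higher log2 fold change. The exact two-sided permutation test over mice on log2 CPM gave p = 0.0286, the smallest that the 35 possible splits allow.

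The call of Tgfbr2 held in all 15 alternative fits. Among the fits that dropped a mouse, its log2 fold change was lowest without mouse 478 (1.44, adjusted p = 0.0301, edgeR) and highest without mouse 477 (1.83). With every library thinned to the total of the smallest one, which removes the gap in depth between the groups, it was 1.58 (adjusted p = 0.00650, edgeR).

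**Figure D2:**
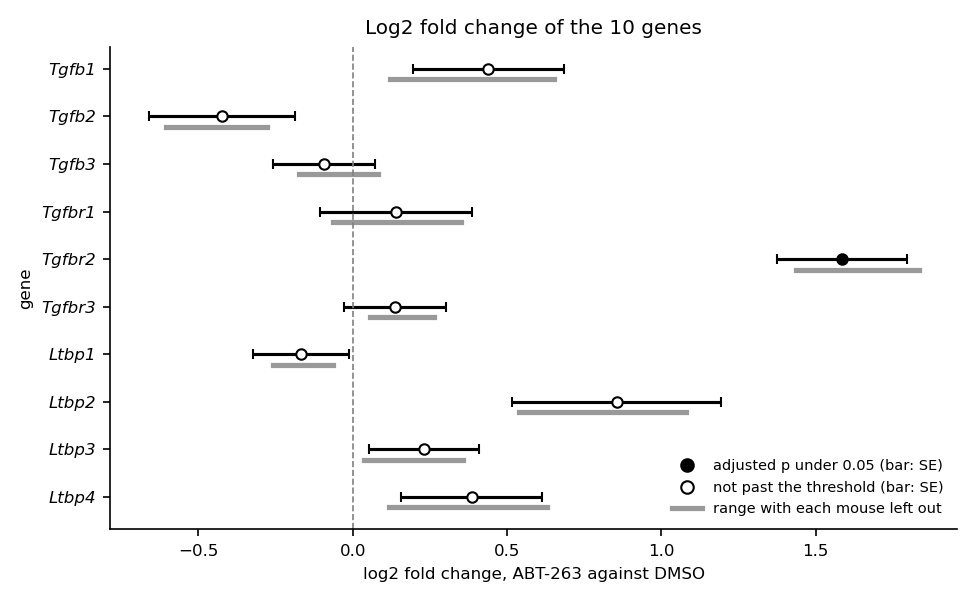
Log2 fold change of each gene, ABT-263 against DMSO, with bars of 1 SE and a grey bar for the range when each mouse was left out; filled points passed an adjusted p of 0.05. Tgfbr2 at 1.58 is the filled point, and the grey bars of Tgfb3 and Tgfbr1 cross 0.

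Tgfbr1 (ENSMUSG00000007613, chr4:47353222-47414931, plus strand, 9 exons) encodes the type I kinase that Tgfbr2 activates. Its levels were 13.1, 22.6, 16.1 and 14.5 CPM in the DMSO mice and 23.3, 13.5 and 18.1 CPM in the ABT-263 mice. The 2 groups were interleaved, with DMSO mouse 480 lowest and ABT-263 mouse 476 highest. Its log2 fold change was 0.14 ± 0.25 (SE; adjusted p = 0.701, edgeR) and turned to -0.063 without mouse 476. Tgfbr3 (ENSMUSG00000029287, chr5:107106570-107289629, minus strand, 17 exons), the co-receptor, stood at 43.3, 43.6, 51.6 and 63.5 CPM in the DMSO mice and at 61.9, 50.8 and 53.7 CPM in the ABT-263 mice. All 3 ABT-263 values fell inside the DMSO range. For Tgfbr3 the log2 fold change was 0.14 ± 0.16 (SE; adjusted p = 0.571, edgeR). A small part of the Tgfbr3 exons, 4.54% of their bases, also belongs to the predicted gene Gm43422 on the same strand, and reads there cannot be assigned to either gene with certainty.

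The promoters of the called type II receptor and of its uncalled type I partner are shown because the proteins they encode form the signaling complex together. Both are the 250 bases before the first transcription start in RefSeq on GRCm38.p6, printed in the direction of transcription, with GC boxes (GGGCGG) and CCAAT boxes (CCAAT), or their reverse complements, in capitals. RefSeq gave 1 window for Tgfbr2 and 2 for Tgfbr1, and the other Tgfbr1 window is not described here.
Tgfbr2, chr9:116175364-116175613, minus strand: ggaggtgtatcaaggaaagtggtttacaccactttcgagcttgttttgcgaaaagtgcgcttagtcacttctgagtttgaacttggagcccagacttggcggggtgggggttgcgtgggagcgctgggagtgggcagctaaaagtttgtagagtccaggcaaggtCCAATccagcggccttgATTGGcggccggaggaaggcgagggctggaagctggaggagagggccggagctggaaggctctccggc
Tgfbr1, chr4:47352972-47353221, plus strand: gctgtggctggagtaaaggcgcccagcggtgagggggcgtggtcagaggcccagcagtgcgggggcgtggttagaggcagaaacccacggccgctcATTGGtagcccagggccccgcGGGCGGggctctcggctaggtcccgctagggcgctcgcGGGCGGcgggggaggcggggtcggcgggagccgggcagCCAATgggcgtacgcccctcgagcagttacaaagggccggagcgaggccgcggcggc
The Tgfbr2 window is 58.4% G and C and holds 2 CCAAT boxes and no GC box, while the Tgfbr1 window is 74.8% G and C and holds 2 CCAAT boxes and 2 GC boxes. Neither holds a TATA box (TATAAA), and the Smad box (CAGAC), the short motif that Smad proteins can bind, occurs 1 time in the Tgfbr2 window, starting 160 bases before the start, and not in the Tgfbr1 window. On both strands of the 32851 windows of the same length in the RefSeq table, a match was found for the GC box in 32.7%, the CCAAT box in 33.8%, the TATA box in 12.4% and the Smad box in 42.2%, and no matches overlapped in the 2 windows shown. A match of so few letters is a description of the sequence and not a binding site. RefSeq windows were found for 8 of the 10 genes, all but Tgfb3 and Tgfbr3.

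None of the 4 latent binding protein genes passed the threshold, and the ABT-263 and DMSO mice overlapped for each. Ltbp1 (ENSMUSG00000001870, chr17:75005568-75392512, plus strand, 34 exons), which tethers latent complexes to fibronectin and fibrillin matrix, stood at 32.2, 35.4, 25.6 and 32.5 CPM in the DMSO mice and at 24.2, 31.7 and 28.2 CPM in the ABT-263 mice. Mouse 476 lay just under the DMSO range, and the other ABT-263 mice lay within it. Its log2 fold change was -0.17 ± 0.16 (SE; adjusted p = 0.458, edgeR).

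Ltbp2 (ENSMUSG00000002020, chr12:84783212-84876532, minus strand, 36 exons), a family member of elastic microfibrils that does not carry latent ligand, had the second largest fold change of the 10 genes. Its levels were 6.18, 4.003, 7.80 and 10.1 CPM in the DMSO mice and 17.8, 9.53 and 10.8 CPM in the ABT-263 mice. DMSO mouse 483 lay above ABT-263 mouse 477, so the groups overlapped by that pair. The means were 7.01 ± 2.56 CPM (SD, n = 4) and 12.7 ± 4.47 CPM (SD, n = 3). The log2 fold change of 0.85 ± 0.34 (SE) had an adjusted p of 0.0989 in edgeR's test, between 0.0632 and 0.318 over the 15 alternatives, and was 0.54 without mouse 476. Part of its exons, 9.34% of their bases, lies opposite the antisense gene D030025P21Rik.

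Ltbp3 (ENSMUSG00000024940, chr19:5740904-5758532, plus strand, 28 exons), which carries latent TGF-β into the matrix, stood at 78.7, 91.9, 67.7 and 84.5 CPM in the DMSO mice and at 84.5, 80.4 and 119 CPM in the ABT-263 mice. Mouse 478 was above all others, and the other ABT-263 mice lay within the DMSO range. Its log2 fold change was 0.23 ± 0.18 (SE; adjusted p = 0.363, edgeR). Ltbp4 (ENSMUSG00000040488, chr7:27305136-27337692, minus strand, 33 exons), which takes part in elastic fiber assembly, stood at 107, 116, 108.97 and 123 CPM in the DMSO mice and at 95.1, 150.4 and 199.8 CPM in the ABT-263 mice. Here the DMSO mice were tight, with a SD of 7.07 CPM, and the ABT-263 mice fell on both sides of them, with a SD of 52.3 CPM. For Ltbp4 the log2 fold change was 0.38 ± 0.23 (SE; adjusted p = 0.241, edgeR). Without mouse 476, the lowest of the 7, it was 0.63 and passed the threshold (adjusted p = 0.0439, edgeR), the only alternative of 15 in which it did, and without mouse 478 it was 0.12 (adjusted p = 0.724, edgeR).

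To compare the genes with each other, CPM were divided by the length of the longest protein-coding transcript in kb. In DMSO skin Tgfb1 was the most abundant at 30.0 ± 5.14 CPM per kb (SD, n = 4), followed by Ltbp4 at 21.1 ± 1.31 and Ltbp3 at 15.6 ± 1.97 CPM per kb. The middle group was Tgfbr3 at 8.29 ± 1.56, Tgfb3 at 7.27 ± 0.21, Tgfbr2 at 5.09 ± 0.56 and Ltbp1 at 4.71 ± 0.63 CPM per kb. The lowest were Tgfb2 at 3.32 ± 0.75, Tgfbr1 at 2.88 ± 0.73 and Ltbp2 at 1.04 ± 0.38 CPM per kb. Among neighbours in this order, the DMSO ranges overlapped for Tgfbr3 and Tgfb3, for Tgfbr2 and Ltbp1, for Ltbp1 and Tgfb2, and for Tgfb2 and Tgfbr1, so those pairs were not separated by the spread between mice. In ABT-263 skin Tgfbr2 reached 15.3 ± 4.44 CPM per kb (SD, n = 3) and moved from rank 6 to rank 4, with its range of 10.2 to 18.3 overlapping that of Ltbp3 (15.5 to 23.0) and, by a narrow margin, that of Tgfbr3 (8.34 to 10.2). The first place and the rank of Tgfbr2 in ABT-263 skin depend on the length used. With the union of exons as the length, Tgfbr2 ranked 3 in ABT-263 skin, at 15.1 CPM per kb beside 10.4 for Ltbp3. With the union of all annotated exons, Tgfb1 stood at 13.0 CPM per kb in DMSO skin, below Ltbp4 at 17.6. Of the Tgfb1 bases in that union, 56.9% lie in introns of its longest protein-coding transcript.

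The makeup of each role class within a mouse does not depend on library size or on the normalization. Tgfbr2 made up 37.5%, 28.8%, 32.7% and 26.9% of the summed receptor CPM per kb in DMSO mice 480 to 483 and 54.8%, 48.8% and 60.5% in ABT-263 mice 476 to 478. It was thus the second receptor transcript, after Tgfbr3, in every DMSO mouse and the first in every ABT-263 mouse. The mean share went from 31.5 ± 4.71% (SD, n = 4) to 54.7 ± 5.86% (SD, n = 3), a difference of 23.2 percentage points (exact permutation p = 0.0286, two-sided, the smallest possible here; adjusted over 10 shares, p = 0.0952). With each mouse left out, this difference stayed between 20.3 and 26.2 points. The Tgfbr3 share was 46.0% to 58.9% in DMSO mice and 29.1% to 40.0% in ABT-263 mice, and the Tgfbr1 share was 14.2% to 25.2% and 10.4% to 12.9%. Neither receptor overlapped between the groups in share, though both overlapped in level, since a share falls when another member of its class rises.

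**Figure D3:**
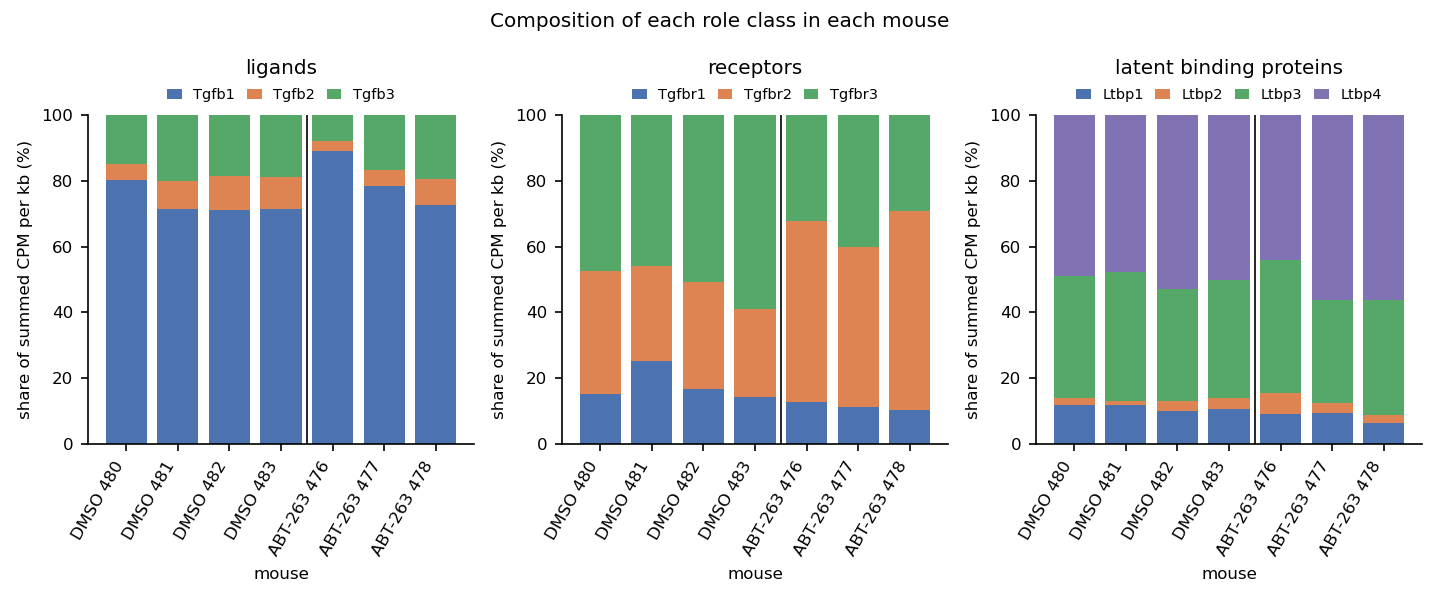
Share of each gene (%) in the summed CPM per kb of its role class, with 1 bar per mouse and a line between the DMSO and ABT-263 mice. Tgfbr2 (orange, middle panel) takes 26.9% to 37.5% of the receptor bars in DMSO mice and 48.8% to 60.5% in ABT-263 mice.

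Tgfb1 made up most of the ligand transcripts in every mouse, at 71.2% to 80.2% in DMSO skin and 72.6% to 89.0% in ABT-263 skin, with overlap between the groups (exact permutation p = 0.286). Tgfb2 was the smallest ligand share in every mouse, between 3.04% and 10.3%. Among the latent binding proteins, Ltbp4 and Ltbp3 together dominated every mouse. Ltbp4 took 47.6% to 52.9% in DMSO and 43.9% to 56.3% in ABT-263 mice, and Ltbp3 took 34.1% to 39.3% and 31.2% to 40.5%. The Ltbp1 share did not overlap, with 10.01% to 11.8% in DMSO mice and 6.42% to 9.57% in ABT-263 mice (exact permutation p = 0.0286, adjusted over 10 shares 0.0952). None of the 10 shares passed an adjusted p of 0.05, and with 35 splits and 10 shares an exact test could pass only if several shares reached the smallest p together. At an unadjusted p below 0.05 there were 3 shares (Tgfbr2, Tgfbr3 and Ltbp1).

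The genes with the profile most like that of Tgfbr2 over the 7 mice were not members of the pathway. By the root mean square difference of log2 CPM centred on each gene's mean, the nearest was Aqp1, a water channel of endothelium and other cells, at 0.11, and the second was Prelp, a small leucine-rich matrix proteoglycan, at 0.12. Aqp1 stood at 130.1 to 184 CPM in DMSO mice and at 280 to 514 CPM in ABT-263 mice. The nearest of the other 9 genes was Ltbp2, at 0.53, and the farthest was Tgfb2, at 1.05. This likeness is over 7 mice and describes these libraries.

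Marker sums of 4 cell types moved with Tgfbr2 in these mice. Summed fibroblast markers ran from 1202 to 2016 CPM in DMSO mice and from 2290 to 3595 CPM in ABT-263 mice, and 3 of 8 rose (Vim, Lum and Pdgfra). All 6 endothelial markers rose, with sums of 154 to 356 CPM and 507 to 656 CPM, and 5 of 9 macrophage markers rose, with sums of 375 to 1099 CPM and 1180 to 2916 CPM. None of these 3 sums overlapped between the groups, and neither did that of the neutrophil markers (100.1 to 1822 and 5098 to 8363 CPM, 3 of 6 tested rose). The gap in the fibroblast sums depended on Vim (251 to 390 and 785 to 1316 CPM). Dcn, Dpt, Thy1 and Pdgfrb overlapped between the groups and were not called. Most of the neutrophil sum was S100a8 and S100a9 (1714 and 3355 of 5098 CPM in mouse 477). Mmp8 overlapped, at 0.55 to 1.88 CPM in DMSO mice and 0.81 to 59.1 CPM in ABT-263 mice. Beside 24.2% of all genes, the shares called were 37.5% for fibroblast, 100% for endothelial, 55.6% for macrophage and 50% for neutrophil markers. They were 33.3% for basal keratinocyte and 25% for skeletal muscle markers. Fibroblasts, endothelial cells and macrophages are all known to express Tgfbr2. The ABT-263 mouse with the lowest Tgfbr2, mouse 477, had the lowest fibroblast, endothelial and macrophage sums of its group. It also had the lowest neutrophil, skeletal muscle and adipocyte sums, so this match was not particular to those cell types. Its smooth muscle and pericyte sum was the lowest too, but Des held 3251 of the 3563 CPM in that sum. Of the other markers of that list, Rgs5, Notch3 and Cnn1 were lowest in mouse 476. At the top the order differed, with Tgfbr2 highest in mouse 478 but the endothelial and macrophage sums highest in mouse 476. The part of cell composition in the Tgfbr2 result was not tested. Sums for smooth muscle and pericyte, differentiated keratinocyte, adipocyte, platelet and T cell markers overlapped between the groups with no marker called, and the basal keratinocyte sums also overlapped (Itga6 rose and Krt15 fell). Of 8 skeletal muscle markers, 2 fell (Tnnc2 and Tnnt3), and their sums overlapped at 34823 to 70787 CPM in DMSO and 27647 to 36598 CPM in ABT-263 mice. Only DMSO mouse 480 lay below the highest ABT-263 sum. All 8 log2 fold changes were negative, with a median of -0.61.

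**Figure D4:**
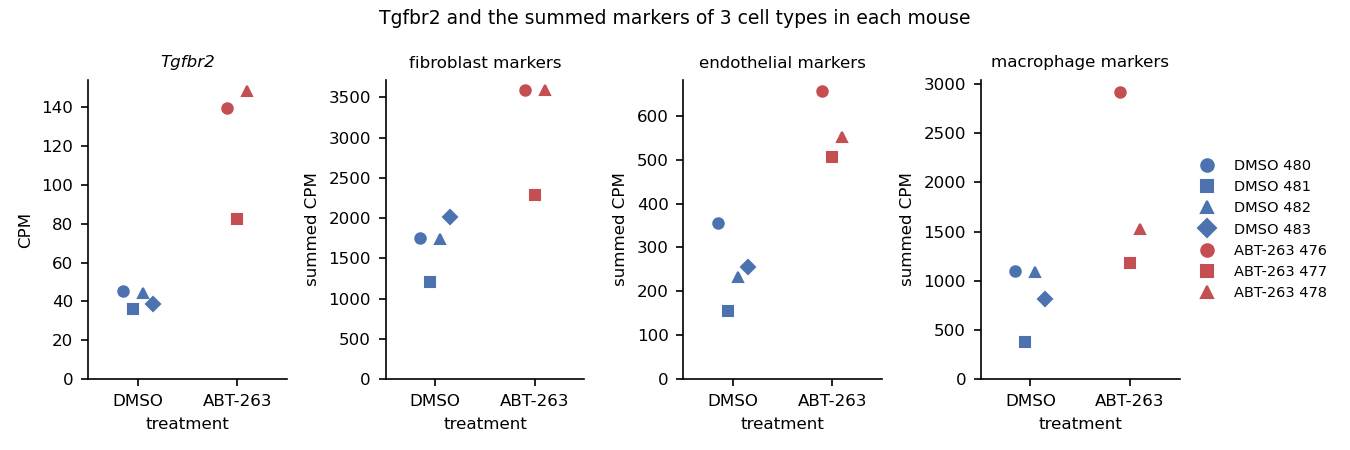
CPM of Tgfbr2 and summed CPM of 8 fibroblast, 6 endothelial and 9 macrophage markers in each mouse (blue DMSO, red ABT-263; axes start at 0). In each panel the 3 ABT-263 mice lie above the 4 DMSO mice, and mouse 477 is the lowest ABT-263 mouse.

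Around these 10 genes, 94 other genes of the pathway, listed from general knowledge of TGF-β biology, were tested in 7 lists. Of these, 25 rose and 4 fell, which is 30.9% called beside 24.2% of all genes, and the median log2 fold change was 0.39. The list of latency and activation and the list of matrix genes had the highest medians. In the list of latency and activation, 5 of 14 rose (35.7% called) and none fell, with a median of 1.02. These were Mmp9 (log2 fold change 3.63) and Mmp2 (1.17), matrix proteases that can free TGF-β, Thbs1 (2.06), the thrombospondin that activates latent TGF-β, Bmp1 (1.08), a protease that cleaves Ltbp1, and Itgb1 (1.04), an integrin subunit. Thbs1 stood at 12.2 to 29.7 CPM in DMSO mice and at 41.6 to 147 CPM in ABT-263 mice, and Itgb1 at 145 to 172 and 268 to 408 CPM. Bmp1 and Itgb1 passed with every mouse left out. Mmp9 was 1.84 without mouse 476 (39.3 and 35.7 CPM in mice 477 and 478 but 316 in mouse 476) and lost its call without DMSO mouse 482 or 483, Mmp2 lost it without mouse 482 or 478 (1.01 to 1.37 with each mouse left out), and Thbs1 without mouse 480, 481, 482 or 476 (1.20 without mouse 476). With all mice but every gene with a count tested, Mmp9 (adjusted p = 0.0739, edgeR) and Thbs1 also lost their calls, and DESeq2 gave no adjusted p for Mmp9. Neutrophil and macrophage marker sums moved with this list, and like Mmp9 the neutrophil genes Csf3r (78.0, 12.4 and 10.7 CPM in mice 476 to 478) and Retnlg (232, 2.09 and 3.03 CPM) were far higher in mouse 476 than in the other ABT-263 mice. Their part in these results was not tested. Mmp14 (0.19) and Itgb5 (0.18) did not pass.

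The list of matrix that holds latent complexes is broad, and not all of its 10 genes encode anchors of latent TGF-β. Of these 10 genes, 5 rose (50% called) and none fell, with a median of 0.75. These were Emilin1 (1.79), an elastic fiber protein known to restrain processing of pro-TGF-β, Fbn1 (1.32), the fibrillin that latent binding proteins attach to, Bgn (1.19), Fn1 (1.13) and Efemp2 (1.02). Emilin1 passed with every mouse left out (1.36 to 2.13), but the others were less stable. With 1 mouse left out at a time, here and for the lists below, Bgn kept its call only without mouse 480, 481 or 477 (0.97 to 1.41), Efemp2 only without mouse 480 or 481 (0.80 to 1.19), Fbn1 only without mouse 477 (0.90 to 1.54) and Fn1 only without mouse 476 (0.58 to 1.43). With all mice, Fbn1 and Fn1 also lost their calls with every gene with a count tested, Fn1 among protein-coding genes only, and Efemp2 under 5 other settings (DESeq2 size factors, every gene with a count, thinned counts, length and GC trends removed, and protein-coding genes only). Fibroblast marker sums moved with this list (Dcn is in both lists), though their gap depended on Vim, and their part was not tested. Dcn (0.48) and Fbln1 (0.42) did not pass.

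Of 13 co-receptors and receptor modulators, 4 rose: Eng (1.53), the endothelial co-receptor, Acvrl1 (1.28), the endothelial type I receptor, Smurf1 (1.09), a ubiquitin ligase that marks receptors for degradation, and Usp15 (0.55), a deubiquitinase of the type I receptor. Eng stood at 27.7 to 62.8 CPM in DMSO mice and at 116 to 176 CPM in ABT-263 mice. Eng, Acvrl1 and Smurf1 passed with every mouse left out, and Usp15 only without mouse 477 (0.42 to 0.65). Usp15 also lost its call with counts thinned to the smallest library (0.51, adjusted p = 0.0505, edgeR). The endothelial marker sums given above moved with Eng and Acvrl1, and their part in this result was not tested. Fkbp1a (-0.11) and Strap (0.23) did not pass, and the median of the list was 0.23. The share called was 30.8%, beside 24.2% of all genes.

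Of 13 Smads and nuclear partners, 3 rose, with a median of 0.33. The share called was 23.1%, beside 24.2% of all genes. Smad2, the effector of TGF-β receptors, stood at 20.9 to 23.8 CPM in DMSO mice and at 28.4 to 31.9 CPM in ABT-263 mice (0.44). Skil (1.00), a nuclear repressor that TGF-β signaling induces, and Smad6 (0.86), an inhibitory Smad, also rose. Smad2 kept its call only without mouse 480, 481 or 476 (0.41 to 0.50), Skil only without mouse 480, 477 or 478 (0.64 to 1.20) and Smad6 only without mouse 481 or 477 (0.77 to 0.99). Smad2 also lost its call with every gene with a count tested. Smad3 (0.0029, adjusted p = 0.994 in edgeR's test), Smad4 (0.32), Smad7 (0.84, adjusted p = 0.191), Smad5 (-0.41) and Ski (0.16) did not pass.

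Of 22 target genes, 5 rose and 1 fell, with a median of 0.53. The share called was 27.3%, beside 24.2% of all genes. Col3a1 (2.93), a fibrillar collagen, stood at 344 to 643 CPM in DMSO mice and at 2128 to 5368 CPM in ABT-263 mice, and Lox (1.64), the collagen cross-linking enzyme, at 21.2 to 46.2 and 79.3 to 146 CPM. Both passed with every mouse left out. Postn (1.56), Tgfb1i1 (0.96) and Col1a2 (0.83) also rose, and Timp3 (-0.57), a protease inhibitor, fell. Tgfb1i1 lost its call without mouse 482 or 478 (0.80 to 1.10), while Postn kept it only without mouse 476 or 477 (1.00 to 1.85), Col1a2 only without mouse 480 or 476 (0.61 to 1.01) and Timp3 only without mouse 480 (-0.69 to -0.48). With all mice, Postn and Timp3 also lost their calls with every gene with a count tested and Col1a2 among protein-coding genes only. Tgfbi (0.79, adjusted p = 0.0562, edgeR), Col1a1 (0.47) and Ccn2 (-0.017, adjusted p = 0.976) did not pass. Fibroblast marker sums moved with the collagen genes, though their gap depended on Vim, and their part was not tested.

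**Figure D5:**
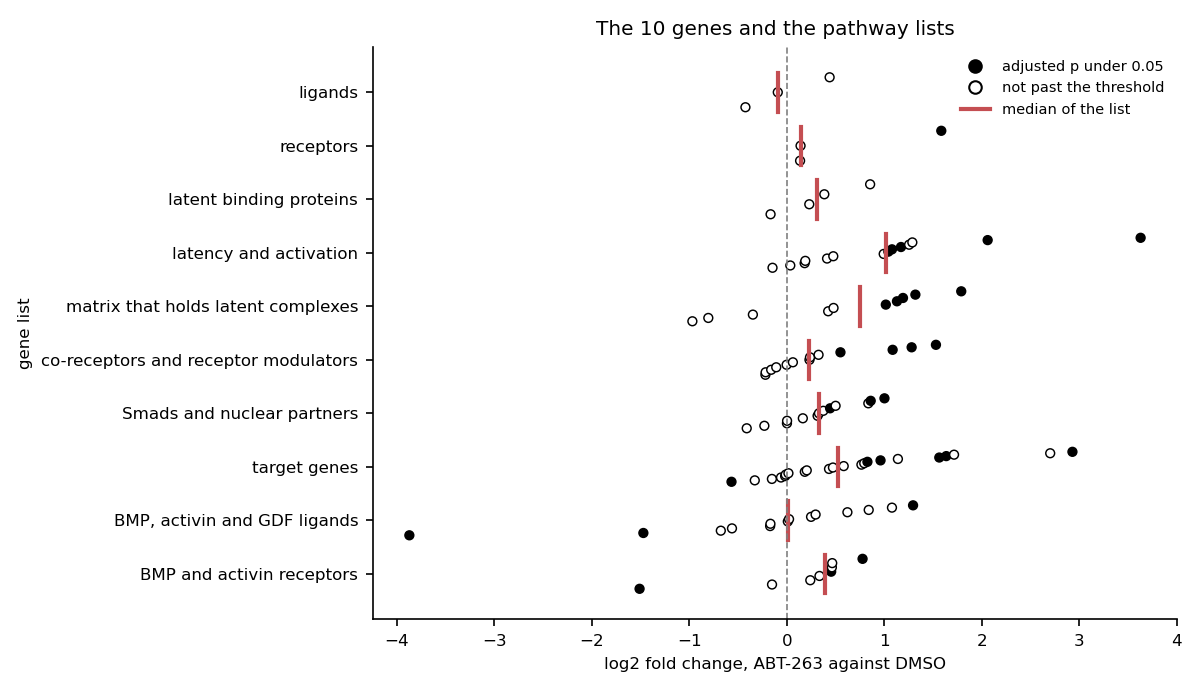
Log2 fold change of each gene, ABT-263 against DMSO, in the 3 role classes and the 7 pathway lists; filled points passed an adjusted p of 0.05 and the red line is the median of a list. The median lies at 1.02 for latency and activation and at 0.75 for the matrix list, and Tgfbr2 is the filled point among the 3 role classes.

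Of 14 BMP, activin and GDF ligands tested (of 15 listed; Gdf6 had too few reads), 1 rose and 2 fell, with a median of 0.017. The share called was 21.4%, beside 24.2% of all genes. Inhbb (1.30), the activin B subunit, stood at 11.2 to 14.3 CPM in DMSO mice and at 27.9 to 40.8 CPM in ABT-263 mice and passed with every mouse left out. Bmp4 (-1.47) and Gdf5 (-3.87) fell. Gdf5 stood at 1.03 to 12.4 CPM in DMSO mice and at 0.25 to 0.48 CPM in ABT-263 mice. The ABT-263 values rest on 7, 19 and 19 raw counts in mice 476 to 478. The fit limited to genes with 10 counts in every sample therefore left Gdf5 out. Gdf5 lost its call without mouse 476 or 478 (-4.22 to -3.16 with each mouse left out), and Bmp4 kept its call only without mouse 480 or 481 (-1.70 to -1.12). Bmp7 (-0.17) and Inhba (1.08, but -0.45 without mouse 476) did not pass. Of 8 BMP and activin receptors, Acvr1 (0.78) and Acvr1b (0.46) rose and Acvr2b (-1.51) fell (37.5% called). Acvr2b, an activin type II receptor, stood at 7.86 to 13.5 CPM in DMSO mice and at 3.15 to 4.45 CPM in ABT-263 mice and passed with every mouse left out, while Acvr1 kept its call only without mouse 477 (0.57 to 0.96) and Acvr1b only without mouse 480 (0.37 to 0.51). Both also lost their calls with length and GC trends removed, Acvr1 with thinned counts, and Acvr1b with every gene with a count tested and among protein-coding genes only. The direction of Acvr2b was thus opposite to that of the TGF-β type II receptor Tgfbr2. Bmpr2 (-0.15) and Bmpr1a (0.34) did not pass.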

How the data were processed

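Dorsal skin of 7 mice (4 DMSO, 3 ABT-263) was profiled as 1 polyA RNA library per mouse. Per the labels and the study's methods, the authors aligned reads to mm10 with STAR 2.7.9a and deposited raw counts per Ensembl gene from featureCounts (Subread 1.6.2), made from uniquely aligned proper pairs on the same strand, without mitochondrial genes. The authors also deposited variance-stabilized values on a log2 scale (DESeq2 1.23.10), used here in 1 alternative only. The labels and the methods name different RNA extraction kits.

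Counts were tested in R 4.3.3 with edgeR 4.0.16 (TMM normalization, filterByExpr, robust quasi-likelihood fit) and Benjamini-Hochberg adjustment over 17959 genes. The script was tested on simulated data. Levels are CPM. Shares within a role class were compared by exact two-sided permutation tests over mice (35 splits). Positions, lengths and symbols came from GENCODE M21 (GRCm38), which held 55190 of the 55450 identifiers, and promoters from RefSeq. The methods name a later Ensembl release for the counting, so the exon models behind the counts may differ from those used here for lengths, shares and overlaps. DESeq2 1.42.0, limma 3.58.1 and mgcv 1.9.3 served the alternatives. Pathway genes are named by rule: in each list up to 4 called genes per direction by p-value and the 2 most abundant uncalled genes, plus Smad2, Smad3, Smad4, Smad7, Ccn2 and Tgfbi; 1 further gene is not reported here. Efemp2, Thbs1 and Col1a2 were outside that rule and were named after their values were seen, to complete counts of 5. The 10 genes and all gene lists were chosen with earlier results of these data known.

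Nothing says how mice were allotted or whether libraries were prepared in batches. Library totals ran from 20344364 to 43562330 counts, and SEs and SDs cover the spread between mice.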

Additional observations from a re-analysis of the deposited data

Results flagged for a closer look

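In a group of 4 DMSO mice, 4 of 41 measures had a mouse far from the rest, judged by the gap to its nearest neighbour as a share of the group's range; chance alone flags about 1 in 20, or 2.05 of 41. The Tgfb1 level of DMSO mouse 480 was 82.0 CPM beside 58.6 to 60.6 CPM in the other DMSO mice (gap 0.914 of the range). The Tgfb1 share of the ligand transcripts in the same mouse was 80.2% beside 71.2% to 71.6% (gap 0.959). The summed basal keratinocyte markers of mouse 480 were 31092 CPM beside 18066 to 19263 CPM (gap 0.908). The summed BMP and activin receptors of DMSO mouse 481 were 226 CPM beside 193 to 196 CPM (gap 0.908). Without mouse 480 the log2 fold change of Tgfb1 was 0.57, with an adjusted p of 0.133 in edgeR's test. The group of 3 ABT-263 mice is too small for this check.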

How the results depend on the processing

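No paired analysis was possible because the mouse numbers are not shared between the groups. The call of Tgfbr2 held in all 15 alternatives, with a log2 fold change of 1.54 to 1.62 over changes of test, normalization, filter, depth, gene type, length and GC correction or input values. With each mouse left out, 1735 to 4169 genes were called in all, 1 to 2 of the 10 genes (Ltbp4 joined Tgfbr2 without mouse 476) and 11 to 27 of the pathway genes; these fits have fewer mice. The other alternatives gave 3247 to 5890 genes in all and 21 to 35 pathway genes, and no share within a role class passed under either other length; without a mouse the shares have too few splits to pass. Directions turned only for results that had not passed the threshold and for the median of 1 list. Without mouse 476 Tgfb3 was 0.083, Tgfbr1 -0.063, Bmp7 0.049, Inhba -0.45 and Smad3 -0.26. With each mouse left out Tgfb3 ranged from -0.17 to 0.083, Tgfbr1 from -0.063 to 0.35, Bmp7 from -0.40 to 0.049, Inhba from -0.45 to 1.54, Ccn2 from -0.35 to 0.21, Smad3 from -0.26 to 0.17 and the median of the BMP, activin and GDF ligands from -0.34 to 0.11. Smad3 was -0.080 with length and GC trends removed and -0.032 among protein-coding genes only, Ccn2 was 0.013 with every gene with a count tested, and that ligand median was -0.016 among protein-coding genes only. The cause of these turns was not tested. With 3 and 4 mice, the SEs of 0.16 to 0.34 on the log2 scale limit what could be seen among the 9 uncalled genes.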
